A study of Homo sapiens with 3 samples.

Results

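The BCL2 family comprises the proteins that decide whether the outer mitochondrial membrane is opened during apoptosis. The family was taken as a list of 10 genes, and the transcript clusters annotated with those symbols on an exon array were read out in 3 human cell lines. Of the 10 genes, 9 had a cluster annotated with that gene alone, out of 14410 such genes on the array. These were the pro-survival genes BCL2 and BCL2L1, the effector genes BAX and BAK1, and the BH3-only genes BID, BIK, BMF, BBC3 and PMAIP1. The cluster annotated with MCL1 also carried 2 other symbols, ADAMTSL4 and ADAMTSL4-AS1, and is given apart from the counts.

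Each line was measured on 1 array. The HT-29 line comes from a colon adenocarcinoma; it was kept in McCoy's 5A with FBS at 10% under 5% CO2 and received interferon gamma (IFN-γ) at 200 U/ml for 24 h. MDA-MB-436, a breast adenocarcinoma line, was grown in L-15 medium with 10% FBS and without CO2. MCF10A cells, mammary epithelium that does not form tumours, were kept in DMEM/F12 with horse serum at 5%, EGF at 20 ng/ml, hydrocortisone at 500 ng/ml, cholera toxin at 100 ng/ml and insulin at 10 µg/ml. Untreated HT-29 cells were not analysed here; in every comparison with HT-29 the line, the medium and the cytokine cannot be told apart. MDA-MB-436 and MCF10A also differ in medium, in serum and in the EGF, hydrocortisone, cholera toxin and insulin named for MCF10A alone. None of these can be told apart from the line. The labels name no IFN-γ for the mammary lines. Replicates were lacking, so that the values below carry no error and no test. In RNA from a whole culture, a difference in all cells and a larger one in some of them cannot be told apart.

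As background, pro-survival members such as BCL2, BCL-XL (the product of BCL2L1) and MCL1 bind and restrain the effectors BAX and BAK, which otherwise assemble into pores in the mitochondrial outer membrane and release cytochrome c. BH3-only proteins respond to stress: some occupy the groove of the pro-survival proteins, and some, such as BID after its cleavage, also activate BAX and BAK directly. Many members are controlled after transcription, by cleavage, phosphorylation or degradation, and transcript levels do not report this.

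One member stood out between the lines. PMAIP1, which encodes NOXA, a BH3-only protein that binds mainly MCL1, exceeded its MCF10A level more than 5-fold in both HT-29 with IFN-γ and MDA-MB-436. BAK1 and BCL2L1 were highest in HT-29 with IFN-γ by 2-fold to 4-fold, and BAX and BID differed by less than 1.5-fold between any 2 lines. BCL2, BIK, BMF and BBC3 were dim on all arrays.

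The sequences that follow are promoters of the 3 members with the largest differences among those well above background, PMAIP1, BAK1 and BCL2L1, and of BBC3, the only 1 of 8 member promoters found that held an interferon-stimulated response element core. Each runs from 250 bases before to 50 bases after the gene start in RefSeq, on build GRCh38.p14, 5′ to 3′ on the gene's own strand. Capitals mark matches on either strand to the motifs searched. Other start sites of these genes were not examined.
PMAIP1, chr18:59899746-59900045, plus strand: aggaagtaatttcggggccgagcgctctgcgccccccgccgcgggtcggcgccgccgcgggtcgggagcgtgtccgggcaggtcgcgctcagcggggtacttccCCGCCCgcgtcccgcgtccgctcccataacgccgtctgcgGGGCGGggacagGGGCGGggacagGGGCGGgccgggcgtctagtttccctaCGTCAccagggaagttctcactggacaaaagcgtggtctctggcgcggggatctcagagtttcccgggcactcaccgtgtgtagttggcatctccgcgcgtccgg
BAK1, chr6:33580227-33580526, minus strand: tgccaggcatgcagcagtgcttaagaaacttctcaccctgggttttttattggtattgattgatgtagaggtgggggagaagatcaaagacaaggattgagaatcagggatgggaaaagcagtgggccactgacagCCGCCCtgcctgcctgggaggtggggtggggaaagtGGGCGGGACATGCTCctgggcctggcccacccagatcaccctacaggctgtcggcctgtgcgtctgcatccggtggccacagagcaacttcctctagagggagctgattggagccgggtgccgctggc
BCL2L1, chr20:31723914-31724213, minus strand: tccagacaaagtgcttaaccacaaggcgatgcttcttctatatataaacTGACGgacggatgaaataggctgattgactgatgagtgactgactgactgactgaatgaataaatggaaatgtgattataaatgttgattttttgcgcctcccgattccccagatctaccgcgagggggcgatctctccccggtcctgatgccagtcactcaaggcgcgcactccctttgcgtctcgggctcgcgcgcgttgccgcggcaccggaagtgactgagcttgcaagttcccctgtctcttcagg
BBC3, chr19:47232618-47232917, minus strand: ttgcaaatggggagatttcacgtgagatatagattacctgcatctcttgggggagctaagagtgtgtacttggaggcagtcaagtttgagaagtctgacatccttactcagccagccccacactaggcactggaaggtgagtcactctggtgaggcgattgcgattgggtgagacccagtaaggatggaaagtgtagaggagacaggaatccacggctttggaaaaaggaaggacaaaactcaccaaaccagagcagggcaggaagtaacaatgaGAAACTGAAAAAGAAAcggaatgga

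Of the 10 genes, 8 had a promoter in the RefSeq table, all but MCL1 and BIK. Both strands were searched for 9 motifs. The half-site of the cAMP response element, TGACG, lay once in the PMAIP1 promoter and once in that of BCL2L1, and in 5 of the 8 member promoters, against 24.6% of all 35116 promoters of the same length. The GC box GGGCGG was found 4 times in PMAIP1 and 2 times in BAK1, in 5 of 8 member promoters, and in 45% of all promoters. BAK1 was the only 1 of 8 with a p53 half-site, which 6.63% of all promoters held; it overlaps the second GC box by a base, so both fall in 1 run of capitals. The interferon-stimulated response element core (GAAA, any 2 bases, GAAA) was present in BBC3 alone, as 2 overlapping matches, against 3.57% of all promoters. The E-box CAGGTG, present in 20.6% of all promoters, was found in BAX only. No member promoter held the gamma-activated site TTCNNNGAA (7.66% of all promoters), the full cAMP response element TGACGTCA (1.85%), the C/EBP-ATF element TGATGNAA (3.62%) or the NF-κB site (GGG, any 2 bases, TTTCC; 1.91%). These matches describe letters in a window of 300 bases and not binding.

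Intensities are the deposited linear values, and they are compared between lines for 1 gene, not between genes. Background was set at 29.9, a level that 95% of the values of 228 olfactory receptor genes did not exceed; 5.92 was their median and 101 their maximum. Genes were called different when their intensity differed at least 4-fold, or in a wider count 2-fold, and the higher value was above background. The arrays had medians of 75.9 in HT-29, 81 in MDA-MB-436 and 75.1 in MCF10A, and 9594, 9907 and 9362 of their genes were above background. Markers were read as a check of the labels. Intestinal epithelium genes summed to 4107 in HT-29, 105 in MDA-MB-436 and 77.8 in MCF10A over 6 genes, although CDH17 and CDX1 were at only 21.3 and 34.8 in HT-29. Basal mammary genes summed to 713, 75.2 and 7935 over 4 genes in the same order of lines, so that all 4 were under background in MDA-MB-436. Epithelial genes summed to 7705, 79.8 and 3077 and mesenchymal genes to 58.9, 3982 and 2397, over 4 genes each; no marker here is particular to MDA-MB-436 as a breast line. Interferon-response markers summed to 8718 in HT-29, 584 in MDA-MB-436 and 105 in MCF10A over 3 genes. All 4 leukocyte and all 4 endothelial markers measured were under background on every array.

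Of the 9 members, 5 were above the highest olfactory receptor value on every array: BCL2L1, BAX, BAK1, BID and PMAIP1. The other 4, BCL2, BIK, BMF and BBC3, were under it on every array, and of these BCL2 and BMF were also under background on 1 array each. Across olfactory receptor genes, most of them dimmer than these 4, the SD of the log2 difference from MCF10A was 0.78 in MDA-MB-436 and 0.76 in HT-29, and that of HT-29 minus MDA-MB-436 was 0.80.

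**Figure D1:**
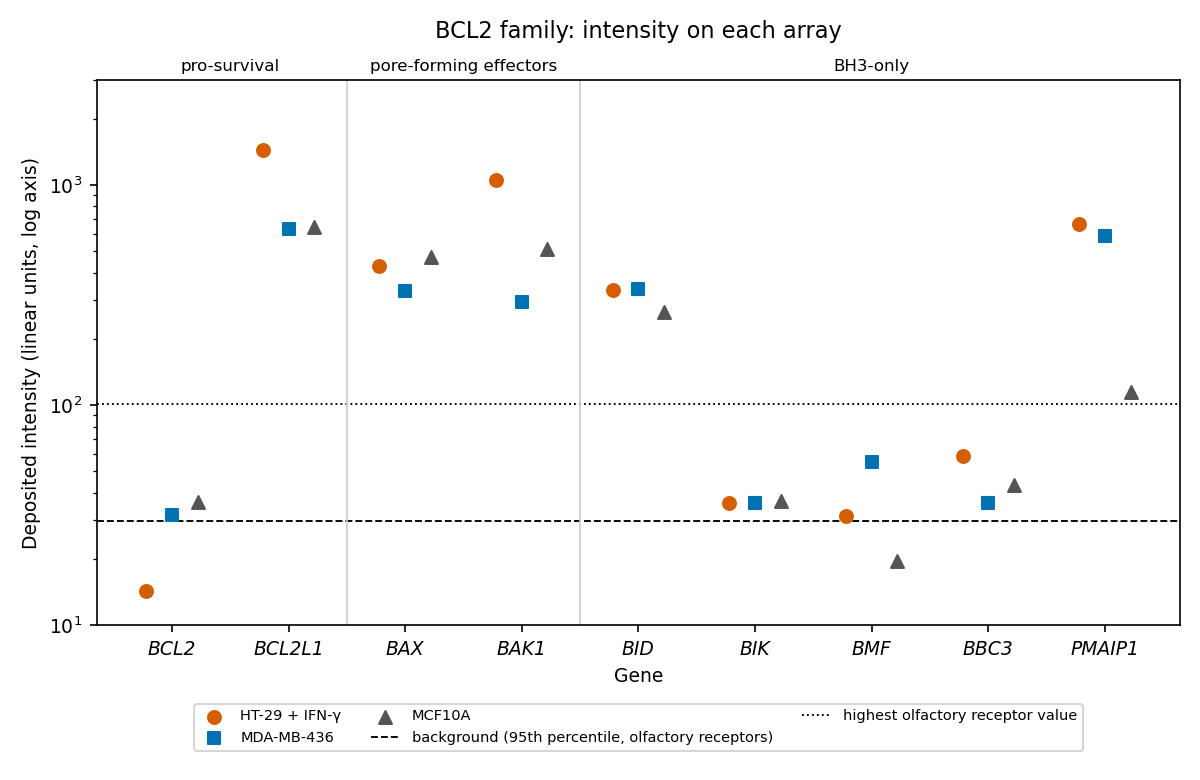
Deposited intensity (log axis) of the 9 BCL2 family genes with a cluster of their own, grouped by role, with 1 point per array: HT-29 with IFN-γ (circle), MDA-MB-436 (square) and MCF10A (triangle). The dashed line is background at 29.9 and the dotted line the highest olfactory receptor value at 101; PMAIP1 is low in MCF10A only, and BCL2, BIK, BMF and BBC3 lie under the dotted line on every array.

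Among the pro-survival genes, BCL2L1 was expressed in all lines. Its intensity was 1449 in HT-29 with IFN-γ, 631 in MDA-MB-436 and 648 in MCF10A. HT-29 stood apart and the mammary lines lay within 1.03-fold of each other, a difference whose sign turned under quantile normalization. HT-29 was 2.24-fold above MCF10A and 2.30-fold above MDA-MB-436. Among genes above background in the pair of arrays, 12.3% and 12.4% were at least as far higher in HT-29.

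BCL2, the founding pro-survival gene of the family, was at 14.3 in HT-29, 31.8 in MDA-MB-436 and 36.5 in MCF10A. The HT-29 value was under background and the mammary values just above it. Against background, BCL2 was at least 1.22-fold lower in HT-29 than in MCF10A and at least 1.06-fold lower than in MDA-MB-436. The mammary lines differed by 1.15-fold.

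The cluster shared by MCL1, a short-lived pro-survival protein, and its neighbouring symbols had an intensity of 2448 in HT-29, 1372 in MDA-MB-436 and 1723 in MCF10A. It was 1.42-fold higher in HT-29 than in MCF10A and 1.26-fold lower in MDA-MB-436 than in MCF10A. Which of the genes gave this signal was not tested.

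Of the effectors, BAK1 varied more than BAX. BAK1, whose product resides in the mitochondrial outer membrane, was at 1054 in HT-29 with IFN-γ, 295 in MDA-MB-436 and 512 in MCF10A. The order ran from HT-29 at the top to MDA-MB-436 at the bottom, with MCF10A between them. HT-29 was 2.06-fold above MCF10A and 3.57-fold above MDA-MB-436, the largest difference of any member between these tumour lines. At least as far higher in HT-29 than in MDA-MB-436 were 6.46% of the genes above background. MDA-MB-436 was 1.73-fold below MCF10A.

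BAX, whose product moves from the cytosol to mitochondria on activation, was at 427 in HT-29, 331 in MDA-MB-436 and 470 in MCF10A. These values span 1.42-fold. BAX was lowest in MDA-MB-436, as BAK1 was, with log2 differences from MCF10A of -0.50 for BAX and -0.79 for BAK1 against a median of 0.018 over all genes. With median centring, which moved the median of all clusters by 0.11, they were -0.61 and -0.90, and with quantile normalization -0.33 and -0.62.

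PMAIP1 had the widest range of the family. Its intensity was 664 in HT-29 with IFN-γ, 586 in MDA-MB-436 and 115 in MCF10A. Both tumour lines were high and close to each other, at 1.13-fold, a difference whose sign turned under quantile normalization. Set against MCF10A, PMAIP1 was 5.80-fold higher in HT-29 (log2 2.54) and 5.12-fold higher in MDA-MB-436 (log2 2.36). The MCF10A value lies above background and just above the highest olfactory receptor value. Of genes above background, 4.37% were at least as far above MCF10A in HT-29, and 3.93% in MDA-MB-436.

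BID, the BH3-only protein that caspase-8 cleaves to link death receptors to mitochondria, was nearly level, at 332 in HT-29, 337 in MDA-MB-436 and 266 in MCF10A. The span was 1.27-fold. BIK, a BH3-only protein of the endoplasmic reticulum, was at 36.1, 35.8 and 36.7 in the same order, a span of 1.02-fold at a level just above background. Values so close to background give no order of the lines for BIK.

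BMF, a BH3-only protein tied to the cytoskeleton and to loss of attachment, was at 31.4 in HT-29, 55.3 in MDA-MB-436 and 19.7 in MCF10A. MDA-MB-436 was highest, and MCF10A was under background, so the excess of MDA-MB-436 over MCF10A was at least 1.85-fold. BBC3, which encodes PUMA, a p53 target that binds all pro-survival members, was at 59 in HT-29, 36.2 in MDA-MB-436 and 43.5 in MCF10A. This 1.63-fold span, like that of BMF, lies at levels that olfactory receptor genes also reached. The 2 overlapping interferon-element cores in the BBC3 promoter printed above thus stand beside a log2 difference of 0.44 between HT-29 with IFN-γ and MCF10A.

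**Figure D2:**
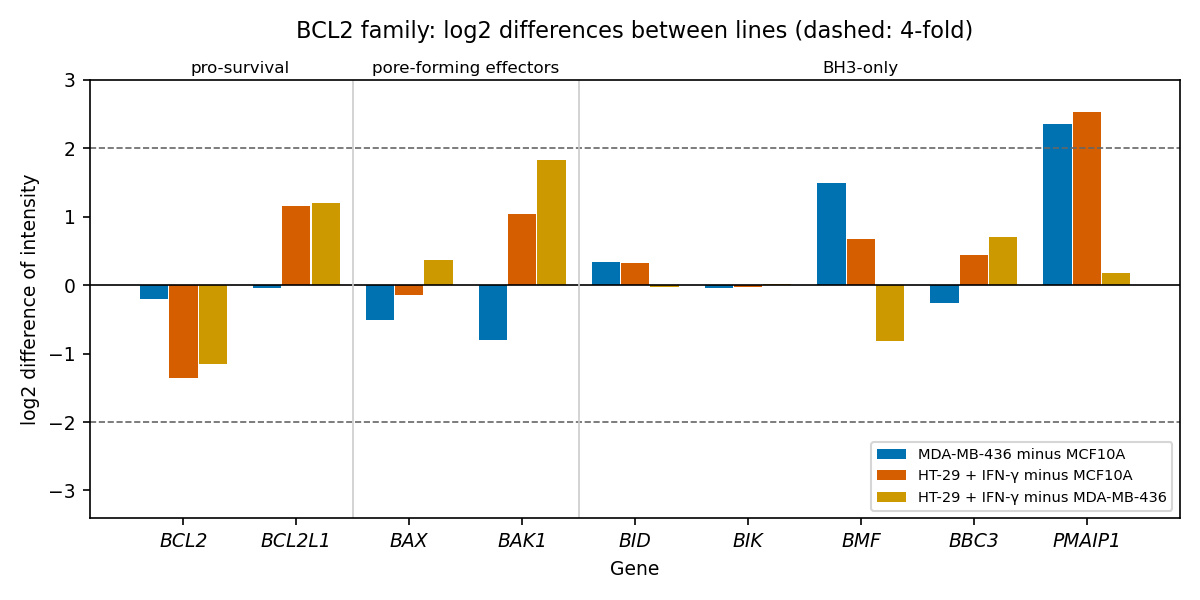
log2 differences of intensity for the 9 genes in MDA-MB-436 minus MCF10A, HT-29 with IFN-γ minus MCF10A and HT-29 with IFN-γ minus MDA-MB-436; bars start at 0, dashed lines mark 4-fold and there is 1 array per line. The bars of PMAIP1 against MCF10A, at 2.36 and 2.54, pass 4-fold, and the BAK1 bar for HT-29 minus MDA-MB-436 reaches 1.84.

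Counted over the family, MDA-MB-436 set against MCF10A, a breast cancer line against a non-tumorigenic mammary line, gave 1 of 9 members past 4-fold on the higher side, PMAIP1, and 0 on the lower side. Over all genes 3.64% were 4-fold higher and 2.01% lower. At 2-fold the count was 2 of 9 higher, PMAIP1 and BMF, and 0 lower, against 8.75% and 8.73% of all genes. With values under background set to the background, PMAIP1 alone remained at 2-fold. The median log2 difference of the members was -0.04, beside 0.018 over all genes.

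HT-29 with IFN-γ set against MCF10A gave 1 of 9 members at least 4-fold higher, again PMAIP1, and 0 lower, where 4.33% of all genes were higher and 3.5% lower. At 2-fold, 3 of 9 were higher, BCL2L1, BAK1 and PMAIP1, and 1 lower, BCL2, against 10.2% and 10.1% of all genes. BCL2 left this count when values under background were set to it. The members' median was 0.44, beside 0.11 over all genes. Both counts for PMAIP1 use the same MCF10A array, so they are not separate observations of it.

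HT-29 with IFN-γ set against MDA-MB-436 gave 0 of 9 members past 4-fold, where 4.21% of all genes were higher and 4.68% lower. At 2-fold, 2 of 9 were higher, BCL2L1 and BAK1, and 1 lower, BCL2, against 11.5% and 11% of all genes, and BCL2 again left the count with the background floor. The median was 0.18, beside 0.075. With 9 genes, each count rests on single genes.

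The 4 members outside the pro-survival group that lay above the highest olfactory receptor value were set against BCL2L1. What such ratios of transcripts mean for the balance of the proteins was not tested. The difference between the log2 differences of PMAIP1 and BCL2L1 was 2.39 for MDA-MB-436 minus MCF10A, a 5.25-fold higher ratio. BCL2L1 differed by only 1.03-fold between these lines, so this nearly restates the 5.12-fold of PMAIP1 alone. For HT-29 minus MCF10A the difference for PMAIP1 and BCL2L1 was 1.37, a 2.59-fold higher ratio. For BAK1 and BCL2L1 it was -0.76 for MDA-MB-436 and -0.12 for HT-29, so in HT-29 both genes were higher by nearly the same factor. For BAX it was -0.47 and -1.30, a ratio to BCL2L1 lower by 2.46-fold in HT-29 than in MCF10A. For BID it was 0.38 and -0.84. With HT-29 set against MDA-MB-436 it was -1.02 for PMAIP1, 0.64 for BAK1, -0.83 for BAX and -1.22 for BID.

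Among the 3 genes whose pattern over the lines lay nearest to that of PMAIP1 were JUN, an AP-1 transcription factor gene, and CMPK2, a mitochondrial nucleotide kinase gene. Their Euclidean distances on log2 intensities centred for each gene were 0.152 and 0.164. JUN was at 587 in HT-29, 450 in MDA-MB-436 and 98.5 in MCF10A, and CMPK2 at 225, 171 and 34. In all, 12 genes lay within a distance of 0.25. With 3 arrays such a likeness describes an order of lines that many genes share.

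Genes next to a member on its chromosome were read as well, in the order of the RefSeq annotation and without coordinates. PMAIP1 and BCL2 both lie on chromosome 18, and of the 20 measured neighbours taken for each, 11 are shared. In MDA-MB-436 minus MCF10A, 48.9% of all genes were below 0, and 42.8% by more than 0.1 on the log2 scale. Around PMAIP1, 16 of 20 neighbours were below 0 and 13 by more than 0.1, with a median log2 difference of -0.44, whereas PMAIP1 itself was higher by 2.36. Its nearest neighbour on one side, CCBE1, was at 70.9 in MDA-MB-436 and 172 in MCF10A, and MC4R on the other side was under background on every array. Around BCL2, 16 of 20 were lower, all 16 by more than 0.1, and the median was -0.81, with the adjacent gene KDSR at 294 in MDA-MB-436 and 649 in MCF10A. Above background in either line were 16 of the 20 around PMAIP1 and 14 of the 20 around BCL2. Taken only from genes above background, the neighbours of BCL2 again had a median of -0.81. Among the lower neighbours of BCL2 is SERPINB5, 1 of the basal mammary markers read above.

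BBC3 and BAX lie on chromosome 19 and share none of these neighbours (0 of 20). Around BBC3, 19 of 20 measured neighbours were below 0 in MDA-MB-436 minus MCF10A, 15 of them by more than 0.1, with a median of -0.63, and BBC3 had a difference of -0.27. The genes on either side were SAE1, at 623 in MDA-MB-436 and 1080 in MCF10A, and CCDC9, at 58.2 in MDA-MB-436 and 185 in MCF10A. In HT-29 minus MCF10A the same neighbours had a median of 0.27, with 15 of 20 higher. Over all genes the median of that comparison was 0.11, with 8160 of 14410 higher. Around BAX, 12 of 20 neighbours were lower in MDA-MB-436, 9 by more than 0.1, and the median was -0.070, with FTL, the ferritin light chain gene beside it, higher by 1.18 on the log2 scale. Over 5 genes on each side the BAX median was 0.038. In this comparison 16 of 20 neighbours of BBC3 and 12 of BAX were above background in either line. Around BCL2L1, BAK1, BID and BIK the medians for MDA-MB-436 minus MCF10A were -0.10, -0.12, -0.21 and -0.11. There 11, 11, 13 and 12 of 20 neighbours were lower. Around BMF the median was 0.24, with 9 of 20 lower. Copy number was not measured.

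**Figure D3:**
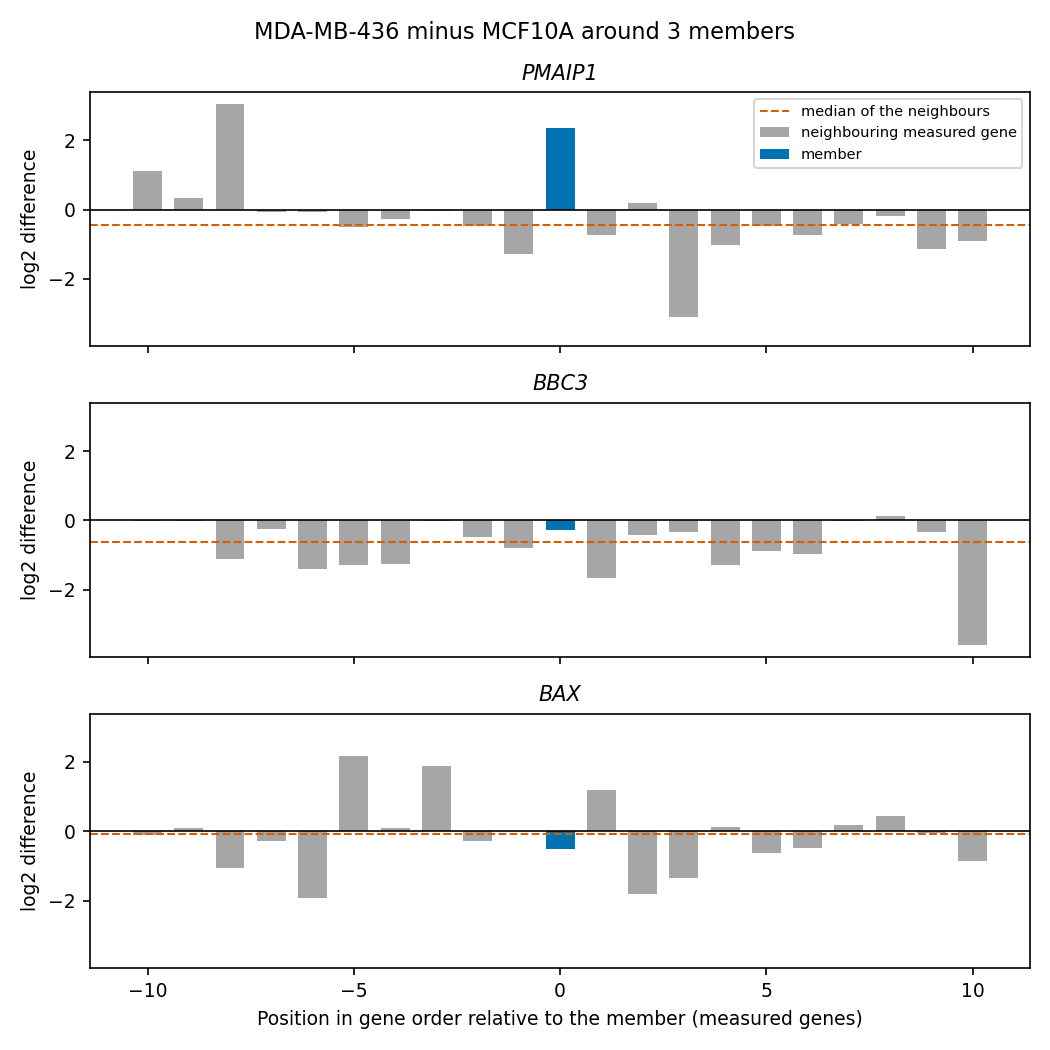
log2 difference of intensity, MDA-MB-436 minus MCF10A, for PMAIP1, BBC3 and BAX (blue) and the 10 measured genes on each side of each (grey), in gene order along the chromosome; the dashed line is the median of the neighbours. Of 20 neighbours of BBC3, 19 lie below 0, 15 of them by more than 0.1, and PMAIP1 stands at 2.36 among neighbours with a median of -0.44.

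Other relatives of the family were read from a fixed list of 13, of which 9 had a cluster of their own. Against MCF10A, 0 of 9 passed 4-fold in MDA-MB-436, and 1 was higher and 1 lower in HT-29. For this list and those below, 3.64% of all genes were 4-fold higher and 2.01% lower in MDA-MB-436 than in MCF10A. In HT-29 minus MCF10A these shares were 4.33% and 3.5%, and in HT-29 minus MDA-MB-436 4.21% and 4.68%. BCL2L14, which encodes BCL-G, was at 127 in HT-29, 11.2 in MDA-MB-436 and 11.1 in MCF10A, at least 4.24-fold higher in HT-29 than in either. BNIP3, a hypoxia-linked mitophagy receptor with a BH3-like motif, was at 6.31 in HT-29, 1439 in MDA-MB-436 and 755 in MCF10A, at least 48.1-fold lower in HT-29 than in MDA-MB-436. BCL2L11, which encodes the direct activator BIM, was at 125, 200.2 and 77.4 in the same order, with MDA-MB-436 exceeding MCF10A 2.59-fold. The pro-survival gene BCL2L2 was at 101 in HT-29, 111 in MDA-MB-436 and 66 in MCF10A, and the BH3-only gene BAD at 77.9, 147 and 128. The list's median log2 differences were 0.46 for MDA-MB-436 and -0.05 for HT-29, each minus MCF10A.

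Downstream of the family, 16 of 20 listed genes of the mitochondrial death pathway were measured. Of these 0 passed 4-fold between MDA-MB-436 and MCF10A, and 1 was lower in HT-29 than in MCF10A. That gene was VDAC3, a mitochondrial outer membrane channel, at 447 in HT-29, 1320 in MDA-MB-436 and 2592 in MCF10A. APAF1, the scaffold of the apoptosome, was at 49.4 in HT-29, 21.3 in MDA-MB-436 and 68.2 in MCF10A, so that MDA-MB-436 lay at least 2.28-fold below MCF10A. CYCS, which encodes cytochrome c, was at 455, 478 and 682, and CASP9, the apoptosome's initiator caspase, at 185, 178 and 154, in the same order. The median log2 differences were -0.28 for MDA-MB-436 and -0.35 for HT-29, each minus MCF10A. Of 10 measured genes for the turnover or binding of MCL1, NOXA and BIM, 0 passed 4-fold in any comparison.

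Of 13 measured transcription factor genes linked to BH3-only genes, MDA-MB-436 had 1 at least 4-fold above MCF10A and 1 as far below it, and HT-29 had 2 above and 1 below. DDIT3, which encodes the stress factor CHOP, was at 1511 in HT-29, 781 in MDA-MB-436 and 60.1 in MCF10A, and so was high in the same lines as PMAIP1. SNAI2, which encodes SLUG, a repressor of BBC3, was at 12.4 in HT-29, 810 in MDA-MB-436 and 4078 in MCF10A. IRF1, an interferon-induced factor, was at 3961, 326 and 95 in the same order, and so was also lowest in MCF10A. Whether DDIT3 or IRF1 bears on PMAIP1 was not tested. ATF4 (620 in HT-29, 301 in MDA-MB-436 and 349 in MCF10A) passed 4-fold in no comparison.

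Because PMAIP1, BBC3 and BAX are p53 targets, 18 measured p53 targets outside the family were set beside them. Between MDA-MB-436 and MCF10A, 0 were past 4-fold on the higher side and 3 on the lower side, and the median log2 difference was -1.36. In HT-29, 1 was higher and 2 were lower than in MCF10A, with a median of -0.83. In each of these comparisons, which share the MCF10A array, 16 of 18 were below 0 by any amount, beside 7046 of 14410 genes for MDA-MB-436 and 6250 for HT-29. ZMAT3, an RNA-binding protein gene, was at 43.6 in HT-29, 93.9 in MDA-MB-436 and 379 in MCF10A, and TP53I3, an oxidoreductase gene, at 139, 50.2 and 385. SFN, which encodes 14-3-3 sigma, was at 944 in HT-29, 169 in MDA-MB-436 and 2633 in MCF10A, and TP53INP1 was at 34.1, 41.6 and 140. The 2 genes on the other side in both comparisons were SESN2, a stress-induced sestrin gene, at 1494, 288 and 125, and GADD45A, a growth arrest gene named after its values were seen, at 346, 396 and 111. Neither PMAIP1 nor these 2 genes shared the direction of the list's median. BAX, with log2 differences from MCF10A of -0.50 in MDA-MB-436 and -0.14 in HT-29, was below 0 by less. Of genes above background, 28.5% and 41.9% were at least as far lower, and the HT-29 difference is only 1.10-fold. BBC3, under the highest olfactory receptor value on every array, differed from MCF10A by -0.27 in MDA-MB-436 and 0.44 in HT-29. Both are smaller than the SDs of 0.78 and 0.76 across olfactory receptor genes, so BBC3 gives no direction here.

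**Figure D4:**
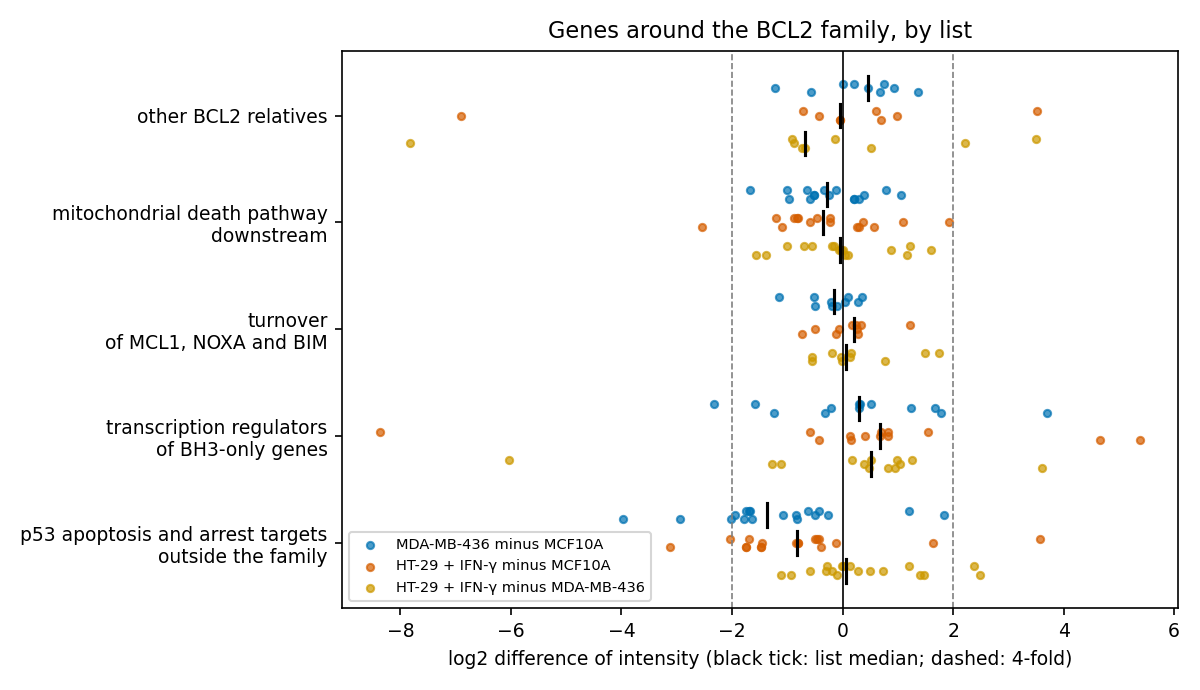
log2 differences of intensity for the measured genes of 5 lists around the BCL2 family, 1 point per gene, in the 3 comparisons; black ticks are list medians and dashed lines mark 4-fold. The p53 targets have medians of -1.36 (MDA-MB-436 minus MCF10A) and -0.83 (HT-29 with IFN-γ minus MCF10A), and the medians of the other lists lie between -0.68 and 0.68.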

How the data were processed

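Total RNA from 3 cell lines was labelled with biotin for exon arrays (labels' protocols). The authors deposited linear intensity values for 18708 transcript clusters on every array. The summary method, background correction and normalization are not given in the sources used here; hg19 is listed per the submitters' processing notes. Of the clusters, 14733 carried a single symbol in the platform annotation, 14705 of them matched by identifier to RefSeq GRCh38.p14, 2875 carried several and 1100 none. The brightest cluster (mean log2) stood for a gene, which left 14410 genes. Intensities were log2 transformed and subtracted between arrays. No test was made; precision is limited by the number of arrays.

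The members, lists and thresholds were chosen with earlier results of these data known. The text names all members, list genes past 4-fold plus some set in advance, the 3 genes nearest in pattern to a member past 4-fold and the genes next to a member. Some listed genes are not analysed here, and 1 gene that the rule named is not reported here. Counting was tested on simulated data, with changes larger than 4-fold planted in genes well above background. That checked the counting alone and not how far a call from single arrays can be trusted. The wider 2-fold count with the background floor and a background at the highest olfactory receptor value were added after the data were seen. The tools were Python 3.11.15 with pandas 2.3.3, numpy 2.4.6 and, for figures, matplotlib 3.10.9.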

Additional observations from a re-analysis of the deposited data

How the results depend on the processing

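No paired analysis was possible because each group had 1 array, and for the same reason no replicate could be left out. PMAIP1 was the only member past 4-fold in MDA-MB-436 minus MCF10A and in HT-29 with IFN-γ minus MCF10A under quantile normalization, median centring, the median over clusters, the background floor, no filter and both stricter backgrounds, and 0 members passed in HT-29 minus MDA-MB-436. The counts differed with the fold: at 2-fold they were 2, 4 and 3 in that order of comparisons, at 2-fold with the background floor, which took out BMF and BCL2, 1, 3 and 2, and at 8-fold 0 in all. Several of these alternatives could change little for the members. Each member had 1 cluster, so the median over clusters could not move it, and median centring shifted all genes of a comparison alike. The background floor acts only on values under background, which only BCL2 and BMF had. PMAIP1 was above the highest olfactory receptor value on every array, so a changed background could not remove it. Of 108 member differences under alternatives, 104 moved by less than 1.5-fold. The other 4 moved with the background floor: BCL2 to -0.29 (HT-29 minus MCF10A) and -0.09 (HT-29 minus MDA-MB-436), and BMF to 0.071 (HT-29 minus MCF10A) and 0.89 (MDA-MB-436 minus MCF10A). All 60 list medians moved by less than 1.5-fold, and 134 of 135 medians of neighbours did. Around BCL2 the HT-29 minus MCF10A median was -0.78 over genes above background. Several alternatives could change little here too. Median centring moved a difference by at most 0.11 on the log2 scale, too little to reach 1.5-fold, and the median over clusters acts only on genes with several clusters. Values near background limit what can be said of BCL2, BIK, BMF and BBC3.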
